A study of Mus musculus with 24 samples.

Results

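The comparison described here sets the mutant line labelled KO1 against wild type (WT) after 6 h of actinomycin D in mouse 32D cells. It uses the 4 libraries whose titles give KO1 or WT at 6 h, 2 of each, out of 24 in the series, and covers every gene with enough counts to be tested. KO1 cells carry the titles' genotype Nat10+/- and the characteristic Nat10 deficiency, and WT cells carry no stated change. Both were grown in serum (10%) with mouse interleukin-3 (IL-3) at 10 ng/ml and were treated with actinomycin D at 0.05 µg/ml. KO1 and WT at 0, 3 and 9 h, and a second Nat10+/- line (KO2) at 6 h, served for comparison. KO1 is a single line, so a difference from WT describes these cells and need not be an effect of the genotype. The labels speak of biological replicates without saying that cultures were grown and treated separately, and the count tables of both replicates of each group name the same alignment file in their headers. The p-values therefore reflect library-to-library spread alone, and that spread may be technical.

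Nat10 is the acetyltransferase that places N4-acetylcytidine (ac4C) on ribosomal RNA, transfer RNA and some messenger RNA, and it is also a part of the small-subunit processome, the particle that matures the small ribosomal subunit. Actinomycin D binds DNA and blocks transcription, with RNA polymerase I the most sensitive at low doses, so that the level of a transcript after hours of treatment depends on how long the RNA lasts and on what transcription remains. 32D is an IL-3-dependent myeloid line from mouse bone marrow, used as a model of blood progenitors. The series asked how ac4C and Nat10 bear on mRNA half-life.

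Depth was even, with 16057152 to 16865816 gene counts in each of the 4 libraries. Spike-in RNA, stated in the labels to be added in equal amount, was not even: set against the gene counts as CPM (counts per 1e6), it came to 347.7 ± 7.43 in KO1 at 6 h (SD, n = 2) but to 12.57 ± 0.42 in WT, a 27.7-fold difference. The gap was there before the drug, at 240.4 CPM in KO1 and 7.19 in WT at 0 h, and also at 3 and 9 h. KO2 at 6 h stood at 786.9 CPM. The WT libraries of the series held 120 to 257 spike-in counts each. Levels below are therefore CPM scaled by TMM, which sets the average transcript as the reference, and every "higher" or "lower" is relative to that average. Scaled by spike-in totals, a setting added after the data were seen, the median log2 difference was -4.74, with 16005 genes called and 0% of them higher. Whether RNA per cell, recovery or spike-in dosing set this gap was not tested.

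The libraries carried the receptor genes of the IL-3 response, with 1067 to 1131 counts of Il3ra and 2737 to 3005 of Csf2rb, and the blood lineage factors Spi1 and Myb. Other markers of the same progenitor list were low, with 0 to 6 counts of Cd33, 6 to 14 of Elane and 28 to 45 of Mpo. Prtn3 had 379 to 452. The platelet lineage genes Itga2b and Pf4 had 15667 to 18999 and 6989 to 7184 counts. Kit, the stem cell factor receptor of early progenitors, had 0 counts in all 4 libraries. The labels name the cell type as bone marrow lymphoblastocytes, but Cd3e, Ebf1, Rag2 and Ms4a1, which define T and B cells, were also at 0 in all 4. Of the other B cell genes, Cd79a had 303 to 411 counts, Cd79b 153 to 194, Vpreb1 49 to 62 and Igll1 26 to 75. The 22 lymphoid markers summed to 46.2 and 46.1 CPM in the KO1 libraries and to 80.3 and 83.8 CPM in the WT libraries. That gap lay mostly in Nkg7, described with the largest falls. The macrophage genes C1qa, C1qb and Marco and the stromal genes Col1a2, Col3a1, Dcn and Kdr were at 0 throughout. Other macrophage genes were present, with 1972 to 2532 counts of Cd68, 1909 to 2061 of Apoe and 613 to 922 of Cd14. More of that list is described with the largest falls. The endothelial gene Pecam1, also known in blood cells, had 1209 to 1317 counts, and the contractile genes Acta2 and Tagln had 60 to 112 and 10 to 27. In bulk RNA, fewer cells of a type and less RNA per cell cannot be told apart.

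Nat10 mRNA was modestly lower in KO1. Nat10 (ENSMUSG00000027185, chromosome 2, 103551601 to 103591615 on GRCm39) stood at 66.4 and 59.9 CPM in the KO1 libraries and at 76.2 and 75.01 CPM in the WT libraries. All KO1 values lay below all WT values. The fitted log2 difference was -0.26 (SE 0.05, adjusted p = 4.46e-05, edgeR). It rested partly on KO1 replicate 2, without which it was -0.19 (adjusted p = 0.0243). The difference was -0.12 before the drug, and the change from 0 to 6 h did not pass (log2 -0.14, adjusted p = 0.158). Counts over the whole gene say nothing of how much functional protein the line makes. Thumpd1, the adaptor that guides Nat10 to transfer RNA, stood at 109.5 and 110.5 CPM in KO1 and 108.9 and 110.4 in WT (log2 0.00, adjusted p = 0.953). Before the drug Thumpd1 had been called higher in KO1, and its change from 0 to 6 h passed as a fall.

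At 6 h, 5777 of 16167 genes tested passed a Benjamini-Hochberg adjusted p of 0.05 in edgeR's quasi-likelihood test, which is 35.7%. Of all genes tested, 18.4% (2968) were higher in KO1 and 17.4% (2809) lower. These shares depended on level. They were 2.45% and 10.1% under 5 CPM, 27.8% and 21.7% at 5 CPM or more, and 37.1% and 34.9% at 100 CPM or more. A gene list below that holds well-expressed genes is to be read against the shares of its level, not those of all genes. Most differences were small. At least 2-fold differences were called for 97 higher genes (0.6%) and 463 lower ones (2.86%). Of the 463, 394 had a mean under 5 CPM, where low counts make estimates rough. The CPM of the KO1 and WT libraries did not overlap for 10747 genes (66.5%). The split of directions depended on the scale: with upper-quartile scaling 2233 genes were higher and 3540 lower, and all-gene medians moved by -0.05. With TMM the median over all genes was -0.02.

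**Figure D1:**
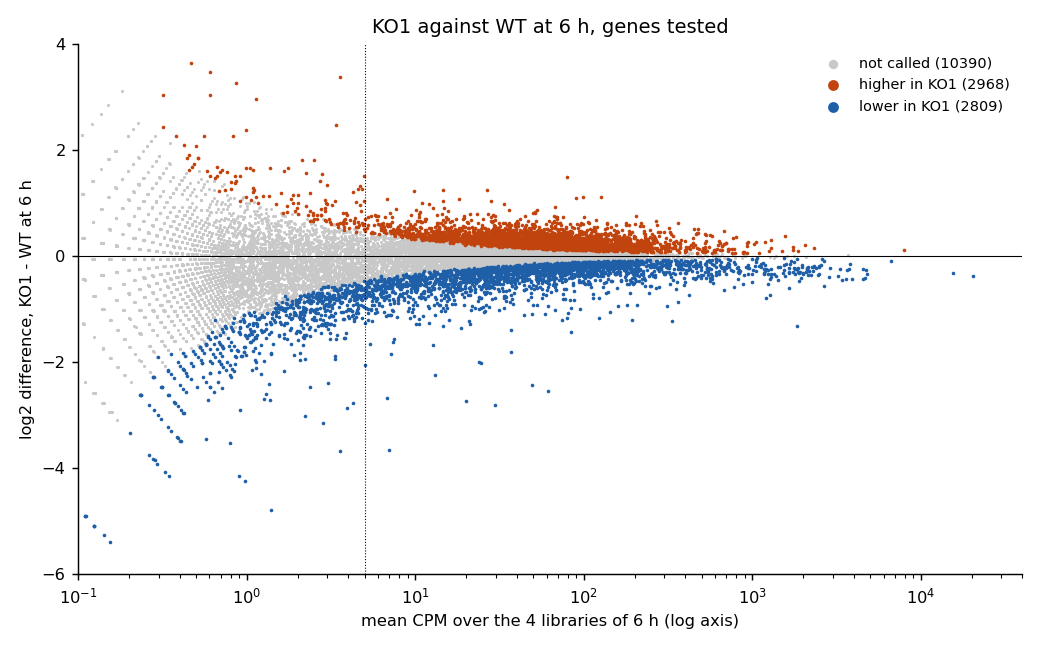
Each point is a gene tested, with its mean CPM over the 4 libraries of 6 h (log axis) against the log2 difference between KO1 and WT. Orange points are the 2968 genes higher in KO1, blue points the 2809 lower, grey points were not called, the dotted line marks 5 CPM, and 229 genes lie outside the axes; most blue points beyond a log2 of -1 sit left of the line.

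The largest rises among genes of at least 5 CPM were modest in size and came from unrelated functions. The cell adhesion protein gene Nectin4 (chromosome 1, 171197667 to 171216166) led them, with 112.9 and 119.3 CPM in KO1 and 40.7 and 42.3 in WT (log2 1.48, SE 0.06, adjusted p = 2.74e-44, edgeR). Csn3, which encodes the milk protein kappa-casein, stood at 38.3 and 37.0 CPM in KO1 and at 16.6 and 15.1 in WT (log2 1.25, SE 0.09). The KO1 libraries lay above the WT libraries for both genes. Cep164, a gene for an appendage protein of the centriole, stood at 20.6 and 20.3 CPM in KO1 and at 7.76 and 9.38 in WT (log2 1.25). Exoc3l2 followed at 1.23, Matn1, which encodes a cartilage matrix protein, at 1.11, Atg9b, an autophagy gene, at 1.11, and Sytl1, a gene of vesicle traffic, at 1.10. Stac2 (1.08), Pgf, the placental growth factor gene (1.08), Sh3yl1 (1.04), Il2rb, which encodes the beta chain of the interleukin-2 receptor (1.04), and Upb1, an enzyme of pyrimidine breakdown (1.003), made up the 12. In none of the 12 did the KO1 and WT libraries overlap, but the genes were selected for large differences in these same libraries. Of all genes tested, 66.5% had no overlap.

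Most of these transcripts had gained share in WT cells too. In WT, 9 of the 12 had at least doubled in fitted level by 6 h of drug. Of all genes tested, at any level, 25.4% had at least doubled and been called. The 12 had to reach a mean of 5 CPM at 6 h, which favours genes that had gained by then. The 2 shares are therefore not like for like. At 0, 3 and 9 h, Nectin4 had mean levels of 0.44, 6.52 and 85.0 CPM in WT and of 1.10, 26.3 and 199.7 CPM in KO1. Matn1 went from 5.03 CPM at 0 h to 90.8 at 9 h in WT and from 6.38 to 181.9 in KO1. Il2rb did not take this course: it stood at 26.9 CPM at 0 h and 20.3 at 9 h in WT, and at 41.3 and 41.9 in KO1. Before the drug 5 of the 12 were already called higher in KO1, against 15% of all genes tested, and 1, Exoc3l2, lower, although Exoc3l2 then stood at only 0.41 CPM in WT.

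The largest falls were larger in size than the rises. Fzd5 (chromosome 1, 64769717 to 64776910), a receptor for Wnt ligands, led with 1.08 and 0.96 CPM in KO1 and 13.8 and 12.004 in WT (log2 -3.65, SE 0.23, adjusted p = 1.1e-26, edgeR). The neighbouring receptor genes Lilrb4a (chromosome 10, 51367052 to 51372707) and Lilr4b are near-identical copies that may share or lose reads. Lilrb4a stood at 17.7 and 18.1 CPM in KO1 and at 102.2 and 106.6 in WT (log2 -2.54, SE 0.07). Lilr4b differed by -2.80. For these genes every KO1 library lay several-fold under every WT library.

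Lyz2 and Adgre1 are textbook macrophage genes, for lysozyme and the F4/80 antigen. Lyz2 stood at 5.29 and 5.10 CPM in KO1 and at 33.5 and 35.8 in WT (log2 -2.73, SE 0.13, adjusted p = 1.98e-36). Adgre1 stood at 16.6 and 13.98 CPM in KO1 and at 84.4 and 81.8 in WT (log2 -2.44, SE 0.08). The other macrophage markers did not share one direction. Csf1r, the receptor for the macrophage growth factor, was higher in KO1 at 15.4 and 16.5 CPM against 8.65 and 7.495 (log2 0.99), and so was Cd14, a receptor for bacterial lipopolysaccharide (0.46). Cd68 was lower by a small amount (-0.32), and Apoe did not pass. Over all 15 markers of this type, 6 were at 0 in all 4 libraries, and the summed level was 328.7 and 326.2 CPM in KO1 and 430.01 and 444.7 in WT. The part of other cells in these differences was not tested.

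Further falls came from Mmp9, a secreted protease of neutrophils and macrophages, with 9.68 and 9.54 CPM in KO1 and 41.4 and 36.7 in WT (log2 -2.02, SE 0.10). Nkg7, a gene of cytotoxic granules, had 144 and 172 counts in KO1 and 574 and 647 in WT (log2 -2.01). Anxa1, which encodes a protein that restrains inflammation, differed by -1.80, and Cd52, a leukocyte surface glycoprotein gene, by -1.67. Fxyd4, a regulator of the sodium pump (-2.68), Fam213a, an antioxidant gene (-2.24), and Cdc42bpa, a kinase acting on the cytoskeleton (-1.84), completed the 12. As with the rises, no gene had overlapping libraries, and the selection from these same libraries made that likely. Of the 12, 10 were already called lower in KO1 at 0 h, against 12.3% of all genes tested. The exceptions were Cdc42bpa, at 0.47 CPM in WT at 0 h, and Cd52, at 2.43 CPM. The difference itself deepened from 0 to 6 h, as called, for Fam213a (change of -1.65), Adgre1 (-1.29), Cd52 (-1.19), Mmp9 (-1.002) and Lyz2 (-0.79). It shrank for Fxyd4 (1.28), and the change did not pass for the others.

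**Figure D2:**
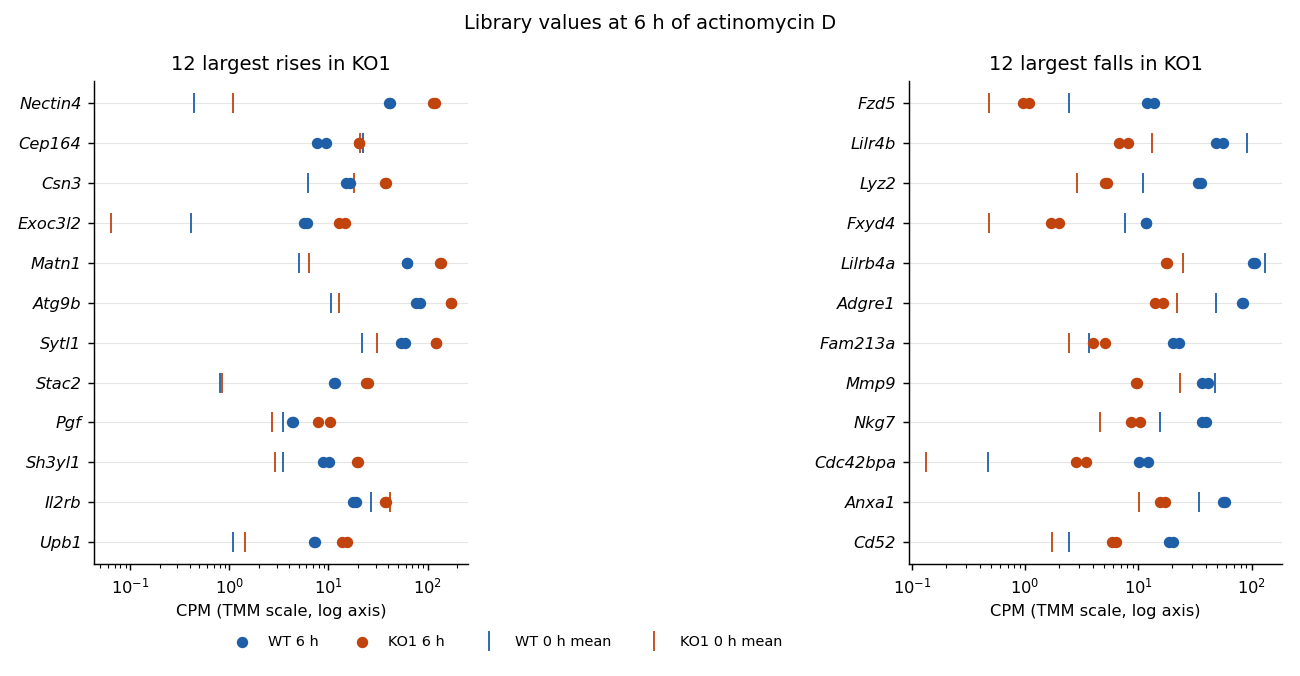
Library values in CPM (log axis) of the 12 genes with the largest rises (left) and the 12 with the largest falls (right) in KO1 at 6 h, with orange dots for KO1, blue dots for WT and vertical ticks for the group means at 0 h. Dots of the KO1 and WT libraries are separate in each row, from 1.003 to 1.48 in log2 for the rises and from -3.65 to -1.67 for the falls. The genes were selected by the differences between these same libraries.

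Ribosomal protein mRNAs formed the most uniform group. These transcripts encode the protein parts of the cytosolic ribosome and are known to be abundant and long-lived. Of 80 tested, 77 were lower in KO1 and 0 higher, with a median log2 difference of -0.24. Rpl37 (chromosome 15, 5146127 to 5148622) stood at 697.9 and 696.7 CPM in KO1 and at 947.4 and 944.7 in WT (log2 -0.44, SE 0.02, adjusted p = 1.67e-37, edgeR), the largest fall of the group. Rpl3 followed with 1108 and 1111 CPM against 1463 and 1453 (log2 -0.39). KO1 libraries lay below WT libraries for 78 of the 80, where 66.5% of all genes tested had no overlap in either direction.

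The exceptions were few. Rps2 stood at 619.4 CPM on average in KO1 and at 606.7 in WT (log2 0.03, adjusted p = 0.338). Rps10 (-0.26, adjusted p = 0.0637) and Rpl24 (-0.22, adjusted p = 0.643) did not pass. Both had few counts for their family, with 18.7 CPM for Rps10 and 1.96 for Rpl24 in WT, and ribosomal protein genes have many near-identical pseudogenes that can take or lose reads. Summed over the 80, ribosomal protein mRNAs made up 111222 and 110884 CPM of the KO1 libraries and 131778 and 131329 CPM of the WT libraries. The group was lower under every scaling based on gene counts, with 76 to 78 members called and 0 called higher.

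This difference was absent from the group before the drug. At 0 h its median was 0.00, with 16 members higher (background 15%) and 21 lower (12.3%), and at 3 h it was -0.25, with 76 lower (16.7%). The change from 0 to 6 h was tested directly and passed as a fall for 74 of the 80 (background 13.2% of genes tested). The mRNAs gained share in both lines, with a median rise from 0 to 6 h of 0.85 in WT and 0.63 in KO1. At 9 h the median difference was -0.36, with 77 lower (background 15.1%).

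**Figure D3:**
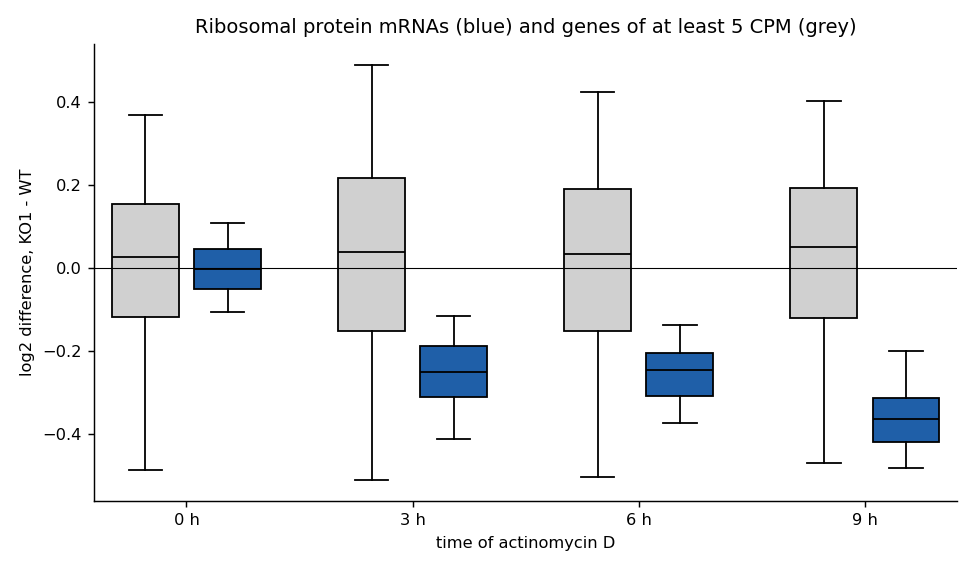
Boxes show the log2 difference between KO1 and WT at 0, 3, 6 and 9 h for 80 ribosomal protein mRNAs (blue) and for the 10130 genes of at least 5 CPM (grey), with the median, quartiles and whiskers from the 5th to the 95th percentile. The blue median starts at 0.00 and then lies at -0.25, -0.24 and -0.36, while the grey median stays close to 0.

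Translation factors did not share one direction. Of 42 tested, 19 were higher and 12 lower in KO1 (median 0.07), and the split turned to 13 higher and 15 lower with upper-quartile scaling. Among elongation factors, Eef1a1, which delivers aminoacyl transfer RNA to the ribosome, stood at 13683 and 13662 CPM in KO1 and at 17141 and 17145 in WT (log2 -0.33, SE 0.01). The differences of Eef2, which moves the ribosome along, and Eef1g were both -0.34. The initiation factor subunits Eif3f (-0.42) and Eif3h (-0.35) were lower as well, as was Rack1, a scaffold on the small subunit, with 2793 and 2794 CPM against 3614 and 3659 (log2 -0.38). By contrast, Eif2b4, a subunit of the exchange factor for eIF2, was higher at 75.9 and 73.9 CPM against 56.3 and 53.6 (log2 0.45), and Eif3d, of the same complex as Eif3f and Eif3h, was higher by 0.36. Eif4a1, the RNA helicase of cap-dependent initiation, stood at 1016 and 1024 CPM in KO1 and at 863.0 and 837.4 in WT (log2 0.26).

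Ribosomal protein and elongation factor mRNAs are known for a run of C and T at the transcription start, the element through which growth signals set their translation. Start windows of 15 bases before to 15 bases after the annotated start were taken from RefSeq on GRCm38.p6 and searched on the gene's strand for an unbroken run of at least 8 letters that are C or T. The windows below show a ribosomal protein (Rps9, log2 -0.37), 2 lower genes with a run and 2 higher genes without, with the run in capitals; they were chosen after the values were seen.
Rps9 (chr7:3704026-3704055, + strand): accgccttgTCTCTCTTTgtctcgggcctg
Rack1 (chr11:48800345-48800374, + strand): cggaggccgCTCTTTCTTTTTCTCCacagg
Eif3f (chr7:108934400-108934429, + strand): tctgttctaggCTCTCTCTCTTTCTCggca
Eif4a1 (chr11:69672409-69672438, - strand): acaaagtaacgtcacgtcgagttgcagagc
Eif2b4 (chr5:31193125-31193154, - strand): cgggacccagtgcacgccggaagttgtagt

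Such a run was present in 25 of 58 ribosomal protein windows (43.1%), in 905 of 7765 other genes of at least 5 CPM (11.7%), and in 11.9% of 27025 starts overall. The median log2 difference was -0.25 for ribosomal protein genes with a run and -0.25 for those without, and 0.05 and 0.05 for other genes. For translation factors it was 0.04 for 6 genes with a run (1 higher, 2 lower) and 0.09 for 27 without (15 higher, 6 lower). None of these differences was tested. Annotated starts can be some bases off the true start, and a run of letters is not a tested element.

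Of 13 mRNAs of the mitochondrial genome, 8 were lower, 0 higher and 5 not called (median -0.34, and -0.22 without WT replicate 1). At 3 h 3 were higher and 3 lower (median -0.03). The mitochondrial gene mt-Co1, for a core subunit of cytochrome oxidase, stood at 17748 and 17690 CPM in KO1 and at 23034 and 23183 in WT (log2 -0.38, SE 0.01, adjusted p = 9.1e-50). The respiratory complex I gene mt-Nd5 stood at 3316 and 3312 CPM against 4436 and 4508 (log2 -0.43). The libraries were polyadenylated RNA, so levels of these RNAs also depend on their short tails. Both genes were already lower at 0 h, by -0.26 and -0.25. Of 67 nuclear genes for respiratory chain subunits, 27 were lower and 10 higher (median -0.06), with Ndufv3, a subunit of complex I, at 146.9 and 148.6 CPM against 218.8 and 208.9 (log2 -0.53).

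Glycolytic enzymes were lower in KO1 at 6 h, but by less than before the drug. Of 20 members, 11 were lower and 3 higher (median -0.25). At 0 h 17 were lower (background 12.3%) and 0 higher (15%), with a median of -0.48. Eno1, the enolase gene, stood at 1192 and 1202 CPM in KO1 and at 1663 and 1624 in WT (log2 -0.46, SE 0.02, adjusted p = 2.56e-44). Its difference had been -0.96 at 0 h, and the change of 0.50 passed (adjusted p = 2.03e-32, edgeR). The change passed upward for 15 of the 20, against 13.1% of genes tested. Pgk1, the kinase that makes the first ATP of the pathway, was the exception among the largest falls, at -0.49 at 6 h with a change of 0.00 (adjusted p = 0.982). The glucose transporter gene Slc2a1 was among the 3 called higher and stood at 64.3 and 64.5 CPM against 50.3 and 46.8 (log2 0.41), after -0.32 at 0 h, and the hexokinase gene Hk1 was higher by 0.32. The lactate exporter gene Slc16a3 had the highest fitted value, at 0.66 and 1.02 CPM against 0.32 and 0.30 (log2 1.41, adjusted p = 0.0701), and did not pass.

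Genes induced by low oxygen outside glycolysis gave 4 higher and 9 lower of 19 (median -0.13), with 2 higher under upper-quartile scaling. Bnip3, a receptor for removal of mitochondria, stood at 74.7 and 72.1 CPM in KO1 and at 80.0 and 80.9 in WT (log2 -0.13), where it had differed by -1.39 at 0 h. Egln3, an oxygen-sensing hydroxylase, stood at 110.6 and 107.9 CPM in KO1 and at 103.8 and 98.5 in WT (log2 0.11, adjusted p = 0.0504), after -1.41 at 0 h. For Egln3 the change was 1.52 (adjusted p = 1.39e-32). Pdk1, the kinase that closes the entry to the citric acid cycle, kept a difference of -0.53.

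Targets of p53 were mostly higher. Low doses of actinomycin D are known to raise p53 through disturbed ribosome assembly, and in WT the list's median rise from 0 to 6 h was 1.25. Of 35 tested, 22 were higher in KO1 and 3 lower (median 0.21). At 0 h 23 were higher (background 15%) and 2 lower (12.3%). Mdm2, the ubiquitin ligase that removes p53, stood at 795.1 and 784.1 CPM in KO1 and at 569.2 and 568.9 in WT (log2 0.47, SE 0.02, adjusted p = 4.29e-38). Its difference had been 0.47 at 0 h, and the change, at 0.00 (SE 0.03), did not pass. Ak1, an adenylate kinase gene, had the largest rise, with 324.1 and 336.6 CPM against 210.6 and 205.7 (log2 0.67). Pidd1, which helps activate caspase-2, differed by 0.55, and Cdkn1a, the cell cycle inhibitor p21, by 0.24. Ddb2, a sensor of DNA damage, was lower (-0.32), a call lost without KO1 replicate 2 (adjusted p = 0.0918) or WT replicate 1 (0.225). Without KO1 replicate 1 or WT replicate 1, 1 member of the p53 list was lower in place of 3. Among 29 genes of the BCL2 and caspase families 11 were higher and 2 lower (9 and 5 with upper-quartile scaling), including Apaf1, the core of the apoptosome, higher by 0.46, and Birc5, the inhibitor survivin, lower by 0.43 (log2 -0.43).

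Cell cycle genes went the other way. In the G1/S and replication list, 24 of 47 were lower and 1 was higher (median -0.18). At 0 h, by contrast, 22 were higher (background 15%) and 2 lower (12.3%), with a median of 0.15. E2f2, a transcription factor of S phase entry, stood at 21.6 and 19.8 CPM in KO1 and at 43.3 and 40.7 in WT (log2 -1.02, SE 0.08, adjusted p = 1.53e-19). Tk1, thymidine kinase, stood at 26.9 and 26.3 CPM against 40.7 and 43.3 (log2 -0.66). Both genes were separate between lines, and neither had passed at 0 h (log2 -0.03 and 0.16). Rrm2, a subunit of ribonucleotide reductase, was the member called higher (0.14), a call lost with upper-quartile scaling (adjusted p = 0.057) and without KO1 replicate 1 (0.0752). The change from 0 to 6 h passed downward for 31 of the 47 (background 13.2%) and upward for 0 (13.1%).

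In the G2/M and mitosis list 32 of 53 were lower and 5 higher (median -0.23), with 3 higher under upper-quartile scaling. Kif11, the motor that separates spindle poles, stood at 51.9 and 49.6 CPM in KO1 and at 71.8 and 73.7 in WT (log2 -0.52, SE 0.05), after 0.06 at 0 h. Kif14, a motor of cell division, had the largest fall (-0.83). Pttg1, which encodes securin, went against the list, at 107.5 and 106.5 CPM against 92.3 and 89.3 (log2 0.24). Replication-dependent histone genes, whose mRNAs end without a poly(A) tail and are poorly caught in such libraries, gave 7 lower and 0 higher of 26 (median -0.59). Hist1h1c, a linker histone gene, stood at 23.1 and 22.1 CPM against 47.0 and 42.0 (log2 -0.98), close to its -0.83 at 0 h.

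**Figure D4:**
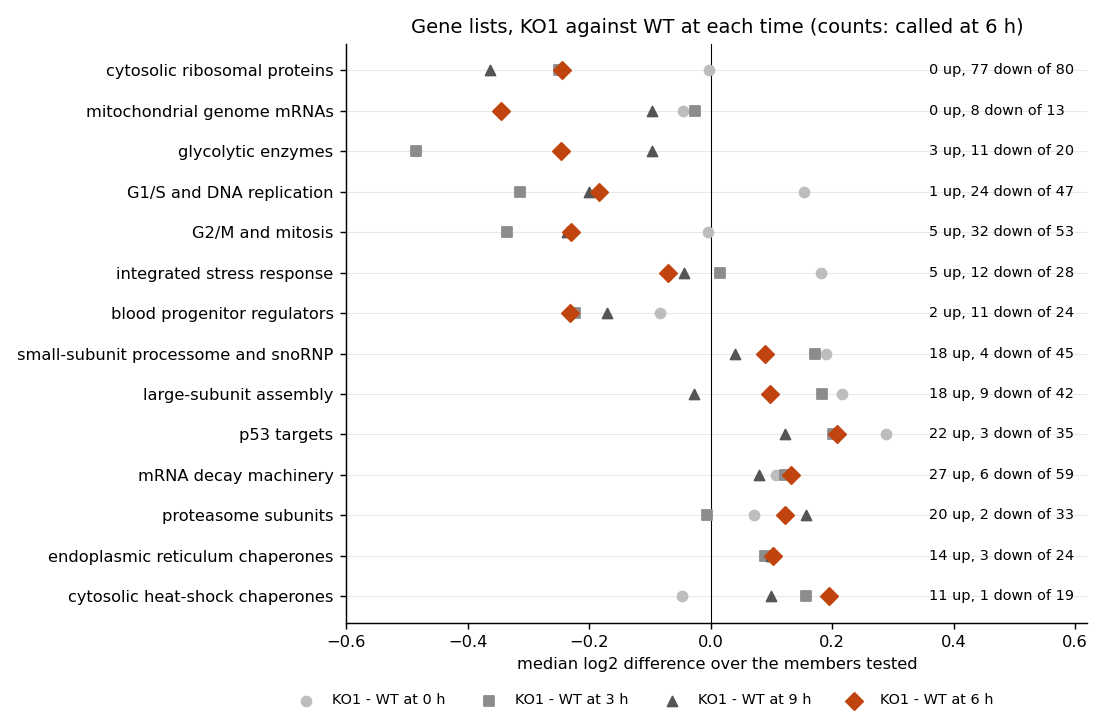
Points give the median log2 difference between KO1 and WT over the tested members of 14 gene lists at 0 h (light circles), 3 h (squares), 6 h (orange diamonds) and 9 h (triangles), with the number of members called higher and lower at 6 h at the right. Ribosomal proteins, G1/S and G2/M genes have medians of 0.00, 0.15 and 0.00 at 0 h and between -0.18 and -0.24 at 6 h, while glycolytic enzymes move from -0.48 to -0.25.

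Of 59 genes for mRNA decay 27 were higher and 6 lower (19 and 11 with upper-quartile scaling). Edc4, a scaffold for decapping, stood at 154.1 and 162.3 CPM in KO1 and at 121.1 and 120.5 in WT (log2 0.39, SE 0.04). Dcp2, the decapping enzyme itself, was lower, at 68.3 and 71.3 CPM against 105.8 and 97.1 (log2 -0.54, SE 0.05). Without KO1 replicate 1 or 2 or WT replicate 2, 3 decay genes were lower. Ttc37, of the complex that feeds RNA to the cytoplasmic exosome, was higher by 0.50. Among 46 RNA modification enzymes 16 were higher and 9 lower (12 and 11 with upper-quartile scaling, 10 higher without WT replicate 2 and 5 lower without WT replicate 1). They include Ythdf3, a reader of N6-methyladenosine, higher by 0.41, and Fto, which removes that mark, lower (-0.50).

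Proteasome subunit genes gave 20 higher and 2 lower of 33. At 0 h 15 had been higher (background 15%) and 2 lower (12.3%), and at 3 h 6 were higher and 7 lower. Psmc1, an ATPase of the regulatory particle, stood at 294.9 and 297.3 CPM in KO1 and at 231.8 and 222.2 in WT (log2 0.38, SE 0.03), after -0.01 at 0 h. The lower members of that list numbered 1 without either KO1 library. Cytosolic heat-shock chaperones gave 11 higher and 1 lower of 19, against 5 and 5 at 0 h (background 15% and 12.3%). Dnaja1, a partner of Hsp70, stood at 376.9 and 380.0 CPM against 294.6 and 291.3 (log2 0.37). Hspa1a, an inducible Hsp70 gene with near-identical copies, was the lower member, at 0.24 and 0.30 CPM against 1.09 and 0.97 (log2 -1.90), a call lost without any 1 of the 4 libraries (adjusted p from 0.0554 to 0.123). Of 24 chaperones of the endoplasmic reticulum, 14 were higher and 3 lower (9 and 4 with upper-quartile scaling). Hspa5, the main chaperone there, was higher by 0.27, and Calr, which folds glycoproteins, stood at 3831 and 3865 CPM against 5149 and 5182 (log2 -0.42).

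Ribosome assembly factors, the neighbours of Nat10 in function, were less shifted than the ribosomal proteins. In the small-subunit processome list 18 of 45 were higher and 4 lower, Nat10 among the lower (11 and 5 with upper-quartile scaling). Before the drug 31 were higher (background 15%) and 1 lower (12.3%). The change from 0 to 6 h passed downward for 17 (background 13.2%) and upward for 3 (13.1%). Utp20, a large scaffold of the processome, stood at 84.5 and 83.0 CPM in KO1 and at 60.5 and 64.7 in WT (log2 0.42, SE 0.05), close to its 0.48 at 0 h. In large-subunit assembly 18 of 42 were higher and 9 lower (13 and 13 with upper-quartile scaling). Brix1 had the largest rise, at 164.9 and 158.2 CPM against 111.3 and 111.5 (log2 0.54), and Gnl3, the nucleolar GTPase nucleostemin, was lower (-0.33) after 0.26 at 0 h. RNA polymerase I genes gave 2 higher and 3 lower of 15 (0 and 4 with upper-quartile scaling, 4 higher with RLE scaling, and 1 higher without KO1 replicate 2 or either WT library), and snoRNA host transcripts 1 higher and 7 lower of 18.

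Regulators of blood progenitors were more often lower, with 11 of 24 lower and 2 higher (median -0.23). Gfi1, a repressor that guides neutrophil fate, stood at 26.1 and 24.7 CPM in KO1 and at 41.5 and 45.0 in WT (log2 -0.77, SE 0.08). It had been higher in KO1 at 0 h (0.48), and the change of -1.25 passed (adjusted p = 4.54e-19). Cebpa, the factor of early granulocyte commitment, stood at 21.3 and 22.3 CPM against 38.1 and 37.0 (log2 -0.78), and Egfl7, a secreted regulator of vessels and blood cells, differed by -1.36. The later granulocyte factor Cebpe went the other way, at 149.2 and 155.8 CPM against 114.0 and 112.0 (log2 0.43), and so did Spi1, the master factor of myeloid cells (0.39). Granule and oxidase genes of neutrophils gave 4 higher and 5 lower of 17, with Lcn2, the iron-binding lipocalin, at 2858 and 2872 CPM against 3898 and 3900 (log2 -0.44).

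Immune receptors gave 6 higher and 12 lower of 23, a count that includes the Lilrb4 genes, with 3 higher without WT replicate 2. Of 15 genes for MHC class I presentation 7 were lower and 3 higher, with H2-K1, a classical class I heavy chain gene of a family with similar copies, at 223.4 and 224.9 CPM in KO1 and 334.6 and 338.7 in WT (log2 -0.59). Tap1, the peptide transporter of that pathway, was higher by 0.34, and was the only member called higher without any 1 of the 4 libraries or with upper-quartile scaling. Interferon-stimulated genes gave 13 higher and 7 lower of 44 (9 and 9 with upper-quartile scaling), among them Mx1, an antiviral GTPase gene with a close copy, lower (-1.20), and Irf7, a factor that turns on interferon genes (0.57), and Ifi35 (0.66), higher. Ifi44 was at 0 in both WT libraries and at 0.06 and 0.12 CPM in KO1, and did not pass (adjusted p = 0.166). The 13 higher members became 8 without KO1 replicate 1 or 2 and 7 without WT replicate 2, and the 7 lower ones 4 without KO1 replicate 2. Platelet and red cell markers gave 3 higher and 7 lower of 17, with 1 higher without WT replicate 1. Among them Ppbp, a platelet chemokine, stood at 104.8 and 112.4 CPM against 207.7 and 209.1 (log2 -0.94), after -0.11 at 0 h. The markers of this list summed to 2077 and 2084 CPM in KO1 and to 2614 and 2608 CPM in WT. Mast cell markers gave 0 higher and 2 lower of 8 (1 without any 1 of the 4 libraries), and stromal markers 0 higher and 1 lower of 7 (0 without KO1 replicate 2).

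Signalling and stress lists were mixed. Short-lived regulatory mRNAs gave 13 higher and 15 lower of 45, with 8 higher without KO1 replicate 2. Myc, a growth regulator with a very unstable mRNA, stood at 19.6 and 22.3 CPM in KO1 and at 28.01 and 25.3 in WT (log2 -0.34, SE 0.08). It had been higher at 0 h (0.48), and the change of -0.83 passed (adjusted p = 1.75e-14). Mxd4, which opposes Myc, stood at 211.3 and 212.6 CPM against 141.1 and 141.9 (log2 0.58). The integrated stress response gave 5 higher and 12 lower of 28 (3 higher with upper-quartile scaling), against 16 and 2 at 0 h (background 15% and 12.3%). Its sestrin gene Sesn2 was higher (0.49) and its proline synthesis gene Pycr1 lower (-0.67). NF-kB genes gave 7 higher and 2 lower of 19, led by Rela (0.39) and by Traf1 (-1.94), an adaptor gene at 1.44 and 1.32 CPM against 6.09 and 4.57. The IL-3 and STAT5 list gave 6 higher and 9 lower of 25, 1 and 14 with upper-quartile scaling, and 3 higher without either KO1 library. Aminoacyl-tRNA synthetases gave 10 and 4 of 20, genes that bind AU-rich elements 7 and 2 of 21 (1 lower without KO1 replicate 2), and SR splicing factors 7 and 5 of 19 (6 and 9 with upper-quartile scaling, 3 lower without WT replicate 1). Cholesterol genes gave 8 and 6 of 23 (6 and 8 with that scaling), and iron genes 6 and 7 of 20, where the ferritin heavy chain gene Fth1 stood at 3985 and 3979 CPM against 5284 and 5312 (log2 -0.41).

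Gene structure moved with the direction of the difference, as a description over the 10130 genes of at least 5 CPM, which are not independent replicates. Genes whose annotation holds a single exon interval had a median log2 difference of -0.24 (n = 392), and those with 32 or more intervals 0.08 (n = 2127). Of the 392, 264 were predicted genes. The remaining 128 had a median of -0.15, with 49 lower and 12 higher. Genes spanning under 5000 bases had a median of -0.10. The difference also ran with how a transcript behaved in WT after 3 h of drug. Transcripts that gained at least 3 log2 units of share from 0 to 3 h had a median of -0.30 (n = 175, 46.3% lower and 6.29% higher), and those that lost more than 2 log2 units a median of 0.11 (n = 352, 9.09% lower and 25.3% higher). At 0 h the same classes had medians of 0.02 and 0.01. The WT libraries of 6 h enter the difference but not that grouping. Those of 0 h enter both the grouping and the difference at 0 h, so the medians at 0 h are not independent of the classes. Over 20 nuclear chromosomes the medians lay between -0.02 and 0.08.

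**Figure D5:**
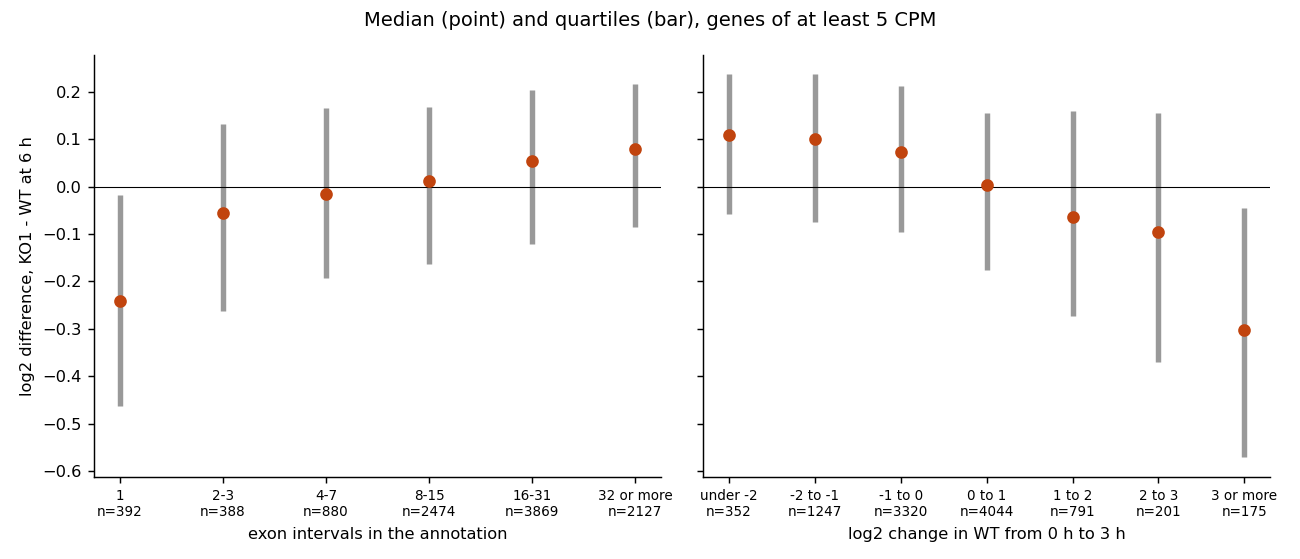
Points are the median and bars the quartiles of the log2 difference between KO1 and WT at 6 h, over genes of at least 5 CPM grouped by number of exon intervals (left) and by the log2 change in WT from 0 to 3 h (right), with the number of genes under each group. The median moves from -0.24 to 0.08 across the left panel and from 0.11 to -0.30 across the right.

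The difference of 6 h resembled that of 9 h far more than that before the drug. The pairs of libraries at each time are separate. Of the genes higher at 6 h, 2107 were also higher at 9 h, which is 71.0% of the list of 6 h and 67.4% of that of 9 h (19.3% of all genes tested were higher at 9 h). With 0 h the shared number was 874 (29.4% and 35.9%), where 15% of all genes tested were higher at 0 h. A further 383 genes higher at 6 h had been lower at 0 h. That is 12.9% of the list of 6 h, close to the 12.3% of all genes tested that were lower at 0 h. Of the genes lower at 6 h, 1660 were lower at 9 h (59.1% and 67.9%) and 744 at 0 h (26.5% and 37.5%). Among all genes tested, 15.1% were lower at 9 h and 12.3% at 0 h. Across 10130 genes the log2 differences of 6 h correlated with those of 0, 3 and 9 h at r = 0.254, 0.671 and 0.810. Genes share libraries and depth, so these values are descriptions.

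Whether the difference itself changed after the drug was tested as an interaction. It passed for 4260 genes between 0 and 6 h (26.3%), 2123 upward and 2137 downward. Between 3 and 6 h 2237 passed (13.8%), and between 6 and 9 h 706 (4.37%). Among named genes Il23a, a subunit of interleukin-23, stood at 76.8 CPM in KO1 and 34.5 in WT at 0 h and at 1.86 and 1.92 against 2.82 and 2.80 at 6 h, a change of -1.73 (SE 0.26, adjusted p = 4.7e-08). Slc39a10, a zinc importer, stood at 6.90 CPM in KO1 and 17.1 in WT at 0 h and at 43.4 and 39.3 against 31.5 and 28.9 at 6 h, a change of 1.76 (SE 0.15, adjusted p = 2.22e-18). For both genes the order of the lines was exchanged between the times.

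KO1 and KO2 were not alike at 6 h. The direct comparison, which uses no WT library, gave 2169 genes (13.4%), 1266 higher and 903 lower in KO1. This count fell to 1398 without KO1 replicate 1 and to 1394 without KO1 replicate 2. Interferon-stimulated genes made up its clearest group, with 42 of 44 lower in KO1 (median -1.16, background 5.59%). Against WT at 6 h, the median of that list was 0.11 in KO1 and 1.36 in KO2. Mx1 stood at 2.10 and 1.92 CPM in KO1 and at 101.8 ± 0.25 CPM in KO2 (SD, n = 2). Ribosomal protein mRNAs were higher in KO1 than in KO2 for 60 of 80 (median 0.10, background 7.83%). G1/S genes were lower in KO1 for 28 of 47, with Ccne1, the gene of cyclin E1, at 20.6 and 19.1 CPM against 28.7 ± 1.78 in KO2 (log2 -0.53). Against WT, which both comparisons share, the G1/S median was -0.18 in KO1 and -0.02 in KO2, and that of ribosomal proteins -0.24 and -0.36. Among single genes, Mid1ip1, a regulator of lipid synthesis, had 0 counts in KO2 and 17.7 and 14.8 CPM in KO1. Adgre1 (log2 1.30) and Cebpa (1.29) were also higher in KO1 than in KO2. For Nat10 the lines could not be separated (log2 0.14, SE 0.06, adjusted p = 0.0775).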

How the data were processed

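RNA sequencing counts were analysed for 24 libraries in 12 groups. Each deposited table holds counts of read pairs per gene, which the authors made with featureCounts 1.6.3, per the file headers, counting paired reads in exons, unstranded, with the Ensembl 105 annotation of GRCm39 plus ERCC spike-ins. STAR and DESeq2 are named in the submitters' processing notes, with versions not given in the sources used here. Per the labels' protocols the kit was directional, but unstranded counting leaves a gene and its antisense partner unresolved. There were 55414 gene identifiers, 0 entries without a gene, and 92 spike-ins, removed before library sizes were taken. Names came from a GENCODE table, which named 52081 identifiers.

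Genes were kept with filterByExpr (minimum count 10) in edgeR 4.0.16 under R 4.3.3, which left 16167. TMM scaling and a quasi-likelihood model with a coefficient per group over all 24 libraries gave log2 differences, standard errors (SE) and Benjamini-Hochberg adjusted p-values, called under 0.05. The common biological coefficient of variation was 0.0206. Replicate libraries differed by more than sampling noise (chi-square per degree of freedom 1.46 for KO1 and 1.58 for WT at 6 h) and were not merged. In simulated data of 16167 genes the test recovered 40 of 50 genes changed 1.2-fold, 48 of 50 changed 1.5-fold and 50 of 50 changed 2-fold, with 12 unchanged genes called. The changed genes were drawn from those with a mean of at least 5 CPM, and every gene was given the common coefficient of variation. Recovery at lower levels or with a spread that differs between genes was not assessed.

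Named genes were Nat10, the 12 largest called rises and falls of at least 5 CPM between KO1 and WT at 6 h, the 5 largest each way for the change from 0 to 6 h and for KO1 against KO2, and up to 3 called members each way of 41 gene lists, without predicted genes; 1 gene that met the rule for the change is not reported here. Other members were named after their values were seen, to show exceptions and roles. Members and lists were chosen with earlier results of these data known. Alternatives were DESeq2 1.42.0, RLE and upper-quartile scaling, no filter, a replicate block, only the compared libraries, each replicate left out, and spike-in scaling.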

Additional observations from a re-analysis of the deposited data

Results flagged for a closer look

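The difference between KO1 and WT was not the same at 6 h as at 0 h for 4260 genes by edgeR's interaction test. Other genes named above, such as Eno1, Egln3, Gfi1 and Myc, passed that test too. Listed here are 21 that passed and were named for the size of their difference at 6 h or of its change. The log2 change was upward for Exoc3l2 (3.78), Ahnak (2.12), Slc39a10 (1.76), Omg (1.76), Icam5 (1.71), Pgf (1.43), Cep164 (1.35), Sh3yl1 (1.28), Fxyd4 (1.28), Atg9b (0.82), Matn1 (0.77), Sytl1 (0.58) and Il2rb (0.42). It was downward for Lyz2 (-0.79), Mmp9 (-1.002), Cd52 (-1.19), Adgre1 (-1.29), Mipol1 (-1.44), Trmo (-1.56), Fam213a (-1.65) and Il23a (-1.73). Several rest on very low levels at one of the times, such as 0.06 CPM in KO1 and 0.41 in WT for Exoc3l2 at 0 h and 0.16 and 0.98 for Ahnak.

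The change was refitted with 1 library left out for 9 of the genes with the largest changes, and 3 of these lost their call. For Ahnak the adjusted p was 0.0838 without KO1 replicate 2 of 0 h and 0.153 without WT replicate 2 of 0 h. For Omg it was 0.0699 and 0.197 without KO1 replicate 1 and 2 of 0 h and 0.268 without WT replicate 2 of 0 h. For Mipol1 it was 0.229 without KO1 replicate 1 of 6 h and 0.171 without WT replicate 2 of 6 h.

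Spike-in RNA, which entered only the spike-in scaling, was, relative to gene counts, 27.7-fold higher in KO1 than in WT at 6 h. KO1 also lay far above WT in this measure at 0, 3 and 9 h, and so did KO2 at 6 h. The part of this spike-in gap in the differences was not tested.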

How the results depend on the processing

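The count of genes called between KO1 and WT at 6 h ran from 4551 to 4697 with 1 library left out, that of the change from 0 to 6 h from 3594 to 3706, and that of KO1 against KO2 from 1394 to 1637. In the same settings the share of calls higher ran from 52.0% to 52.9% and Nat10 from -0.33 to -0.19. A group left with 1 library was assumed to vary like the others. Upper-quartile scaling gave 38.7% of calls higher, against 51.4% in the reported fit. Spike-in scaling gave 16005 calls with 0% higher, 13366 calls between KO1 and KO2, and -4.99 for Nat10. Of 237 named results, 0 reversed in the settings run on them, which left out spike-in scaling, and calls lost numbered 3 with RLE scaling, 10 with upper-quartile scaling, 9 without a filter, 3 with only the compared libraries and 11 of 234 with DESeq2. Leaving out a KO1 or WT library of 6 h lost 21 or 22 calls. DESeq2 called 4874 genes between KO1 and WT. The cause of these shifts was not tested. Of 463 falls of at least 2-fold, 394 were of genes under 5 CPM, and the part of depth in them was not tested.

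Replicate numbers did not pair the libraries: the deviations of same-numbered KO1 and WT libraries of 6 h correlated at -0.01, and all such pairs between -0.02 and 0.15. With a replicate block the counts were 5812 for KO1 against WT with 51.05% higher, 4314 for the change and 2237 for KO1 against KO2, Nat10 was -0.26 (adjusted p = 9.14e-06, edgeR), and 2 named calls were lost.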
